A study of Homo sapiens with 4 samples.

Results

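The human microRNAs of this report carry miR-1178 and later numbers, the part of the naming series that was filled late, when sequencing of small RNA had largely replaced cloning as the way such molecules were found. They were chosen by name alone, as every assay named hsa-miR-1178 or with a later number, with any suffix, except miR-1185, miR-1224 to miR-1229, miR-1233, miR-1236 to miR-1238, miR-1283 and miR-1323. This gave 55 of the 737 miRNA assays on a commercial plate set, 54 of them on panel II and 1, miR-1979, on panel I. The rule left out 6 assays of those excepted numbers. A further 3 late-numbered assays have names in brackets and are given only beside the members.

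The study measured mature miRNA by quantitative PCR in U2OS, a human osteosarcoma cell line grown in DMEM with 5% serum, with 1 RNA sample in each of 4 groups. The shNS sample came from cells infected with lentivirus for a control short hairpin RNA, and the shDDX1 sample from cells infected with lentivirus for a hairpin against DDX1, an RNA helicase; both were selected with puromycin at 2 µg/ml. The NCS- sample came from untreated cells, and the NCS+ sample from cells given NCS at 500 ng/ml for 6 h; NCS is the usual short name of neocarzinostatin, a drug that breaks DNA. The title of the series names the question, whether DDX1 takes part in the processing of some primary miRNAs. DDX1 itself was not among the assays, so the knockdown has no check in these values, and with 1 sample per group there is no spread between samples and no test.

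A miRNA is cut from a primary transcript by Drosha in the nucleus and from the resulting hairpin by Dicer in the cytoplasm, and one arm of the hairpin is loaded into an Argonaute protein. The loaded strand finds messenger RNAs mainly through its seed, bases 2 to 8 counted from the 5′ end. Many miRNAs of high number lie within introns of protein-coding genes or in gene families of recent origin, some were later judged to be fragments of other non-coding RNA, and their expression is often low or limited to a few tissues.

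Of the 55 members, 44 (80.0%) had a mature sequence in the RefSeq table for GRCh38.p14, 25 by the exact name and 19 after an arm or a letter was assigned to the older name. These mature forms were 18 to 27 bases long with a median of 22. No seed was shared between members. The seed of 33 members occurred in no other mature miRNA of the table. The seeds of 2 members matched miR-96 and miR-620, the only lower-numbered assays of the plate set that were looked for. The seed of miR-1908 also occurs in the lower-numbered miR-663a, and whether the plate set holds an assay for it was not checked. Those pairs were miR-1271 with miR-96 and miR-1270 with miR-620, written here 5′ to 3′ with the seed in capitals to show how far each pair is alike.
miR-1271: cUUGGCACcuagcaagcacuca
miR-96: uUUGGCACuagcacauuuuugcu
miR-1270: cUGGAGAUauggaagagcugugu
miR-620: aUGGAGAUagauauagaaau

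The next sequences belong to the members on which the knockdown results turn. Their seeds are in capitals.
miR-1184: cCUGCAGCgacuugauggcuucc
miR-1911: uGAGUACCgccaugucuguuggg
miR-1264: cAAGUCUUauuugagcaccuguu
miR-1266: cCUCAGGGcuguagaacagggcu
miR-1471: gCCCGCGUguggagccaggugu
miR-2110: uUGGGGAAacggccgcugagug
miR-1265: cAGGAUGUggucaaguguuguu

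The panel II members that kept an NCS call under every scaling tried and have a sequence here are written in the same way, together with miR-1255b, which read very differently in the control samples of the pairs.
miR-2113: aUUUGUGCuuggcucugucac
miR-1267: cCUGUUGAaguguaaucccca
miR-1183: cACUGUAGgugauggugagagugggca
miR-1179: aAGCAUUCuuucauugguugg
miR-1255b: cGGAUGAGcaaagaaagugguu

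In GRCh38.p14, at least 30 of the 44 matched members lay within the span of a gene on the same strand. For some others the strand of the gene was not known, among them miR-1270. miR-1911 (chrX:114763195-114763217, plus strand) and miR-1264 (chrX:114652696-114652718, plus strand) fell within HTR2C, which encodes a serotonin receptor. miR-1184 (chrX:154887376-154887398, minus strand), 1 of 3 loci for that miRNA, fell within F8, the gene of clotting factor VIII. miR-1266 (chr15:52277166-52277188, minus strand) fell within MYO5C, which encodes a class V myosin. miR-1271 (chr5:176367960-176367981, plus strand) fell within ARL10, miR-1183 (chr7:21471105-21471131, plus strand) within SP4, a transcription factor gene, and miR-1179 (chr15:88608121-88608141, plus strand) within the span of AEN, which encodes a nuclease. miR-2110 (chr10:114174151-114174172, minus strand) lay within CCDC186 and miR-1267 (chr13:107531217-107531237, minus strand) within NALF1. miR-1255b (chr1:167998665-167998686, plus strand), 1 of 2 loci, lay within DCAF6. miR-1471 (chr2:231892277-231892298, minus strand), miR-1265 (chr10:14436589-14436610, plus strand) and miR-2113 (chr6:98024586-98024606, plus strand) lay within no gene span of that annotation. miR-1270 (chr19:20399320-20399342, minus strand) lay within the span of the pseudogene ZNF826P. Of the lower-numbered seed partners, miR-96 (chr7:129774739-129774761, minus strand) lay within no gene span and miR-620 (chr12:116148575-116148594, minus strand) within MED13L.

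The readout is the quantification cycle (Ct), the PCR cycle at which a well crosses the detection threshold: 1 cycle later is taken as a level lower by 2-fold. A Ct under 35 was counted as detection. On panel II, 53 of 54 members (98.1%) were detected in shNS and 53 (98.1%) in shDDX1, against 99.0% and 97.0% of the lower-numbered miRNA wells of the same panel. In untreated cells 38 members (70.4%) were detected and in NCS-treated cells 36 (66.7%), against 73.3% and 77.0% of lower-numbered wells. Panel II members with a reading had a median Ct of 28.7 in both samples of the knockdown pair, of 32.4 without NCS and of 33.0 with it. The lower-numbered wells of the panel had medians of 28.7, 28.7, 32.1 and 32.3. In the knockdown pair the medians of late- and lower-numbered miRNAs were thus the same to 3 digits, and in the NCS pair the late-numbered ones read slightly later.

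**Figure D1:**
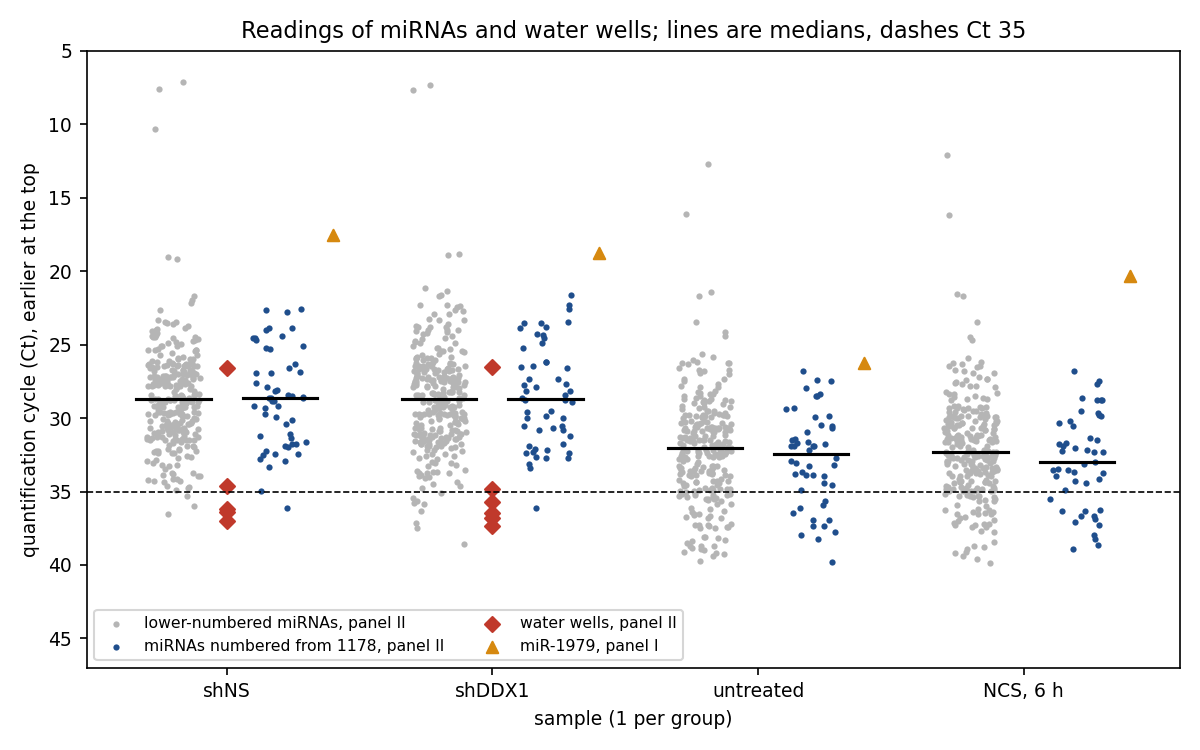
Quantification cycle (Ct, earlier at the top) of each miRNA well in the 4 samples, 1 sample per group, for lower-numbered miRNAs of panel II (grey), members on panel II (blue), miR-1979 on panel I (orange triangles) and water wells of panel II (red diamonds). Horizontal bars are medians and the dashed line is Ct 35; members and lower-numbered miRNAs overlap, with medians of 28.7 and 28.7 in shNS, and water wells gave readings in shNS and shDDX1 and none in the NCS pair.

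Of all 55 members, 34 were under Ct 35 in all 4 samples. In the knockdown pair 53 were detected in both samples. The exceptions were miR-1264, with a Ct of 36.1 in shNS and 32.4 in shDDX1, and miR-1266, with 28.6 in shNS and 36.1 in shDDX1. In the NCS pair 35 were detected in both samples, 4 in untreated cells alone, 2 in treated cells alone and 14 in neither. No reading at all was given in either sample of the NCS pair for miR-1252 and miR-2053, which read 32.2 and 32.8 in shNS.

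The earliest member in every sample was miR-1979, an assay later assigned to Y RNA, the small RNA of Ro ribonucleoprotein. Its Ct was 17.5 in shNS, 18.7 in shDDX1, 26.2 without NCS and 20.3 with it. On panel II the earliest members in shNS were miR-1270 and miR-1265, both at 22.6, miR-1972 at 22.8 and miR-1538 at 23.9. In shDDX1 they were miR-1265 at 21.6, miR-1270 at 22.3, miR-1972 at 22.6 and miR-1260 at 23.5. The NCS pair had another order. In untreated cells miR-1908, whose hairpin lies within the fatty acid desaturase gene FADS1, read 26.8, ahead of miR-1972 at 27.4, miR-1296 at 27.5 and miR-2110 at 27.9. In NCS-treated cells miR-1908 read 26.8, miR-1972 27.5, miR-1296 27.7 and miR-1249 28.6.

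The plates hold wells named as water, 7 on panel II and 2 on panel I, and these set a level that readings can be held against. On panel II, 5 of them gave a reading in the shNS plate and 6 in the shDDX1 plate, and none did in the NCS pair. A single water well read early, at 26.6 in shNS and 26.5 in shDDX1, and the next read at 34.6 and 34.8. In shNS 14 of 54 panel II members (25.9%) read earlier than every water well of the panel and 40 (74.1%) read later than the earliest one. In shDDX1 16 members (29.6%) read earlier than every water well. Among lower-numbered assays of the panel 24.3% and 23.3% did so. With that single well set aside, the earliest remaining water well was ahead of 2 of 54 members in shNS and 1 in shDDX1. Of the 296 lower-numbered wells of the panel it was ahead of 7 in shNS and 9 in shDDX1. What the early water well contained was not tested.

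The 14 panel II members earlier than every water well in both samples of the knockdown pair were miR-1270, miR-1265, miR-1972, miR-1538, miR-1260, miR-1255b, miR-1909, miR-1908, miR-1913, miR-2110, miR-1296, miR-1181, miR-1207-5p and miR-1249. Their Ct ran from 22.6 to 26.3 in shNS and from 21.6 to 26.2 in shDDX1. On panel I, miR-1979, at 17.5 and 18.7, was far ahead of the single water well with a reading, which stood at 27.8 in shNS and 27.3 in shDDX1.

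For the comparisons, each sample was centred on its mean Ct over the 499 miRNA wells under Ct 35 in all 4 samples, and a log2 ratio is the difference of centred levels, positive where the level was higher in shDDX1 or after NCS. A miRNA was quantified where both samples read under 35 and was called at a 2-fold difference. After DDX1 knockdown none of the 53 quantified members was lower at 2-fold, and 11 (20.8%) were higher. Over all miRNA assays of the set 17.3% were lower and 11.0% higher, and among lower-numbered assays of panel II 5.30% were lower and 18.7% higher. The members had a median log2 ratio of 0.60 with 41 above 0, against 0.41 for lower-numbered panel II assays, -0.42 for those of panel I and 0.04 for all assays.

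The number of calls in each direction depended on how the panels were centred. Calibrator wells, which carry the same template on every plate, moved from a mean Ct of 17.8 to 18.5 on panel I and from 16.7 to 16.4 on panel II between shNS and shDDX1. With each panel centred on its own wells, 4 members were lower and 5 higher and their median was 0.17, against 15.6% lower and 7.82% higher over all assays in that setting. Of 283 lower-numbered panel II assays 34 were then lower and 22 higher, with a median of -0.03. As a rough measure of technical spread, the 7 assays placed on both panels gave an SD of 0.38 for an uncentred log2 ratio in this pair. A shift between the panels can be part of this value, and only 3 miRNA assays stand on both panels.

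**Figure D2:**
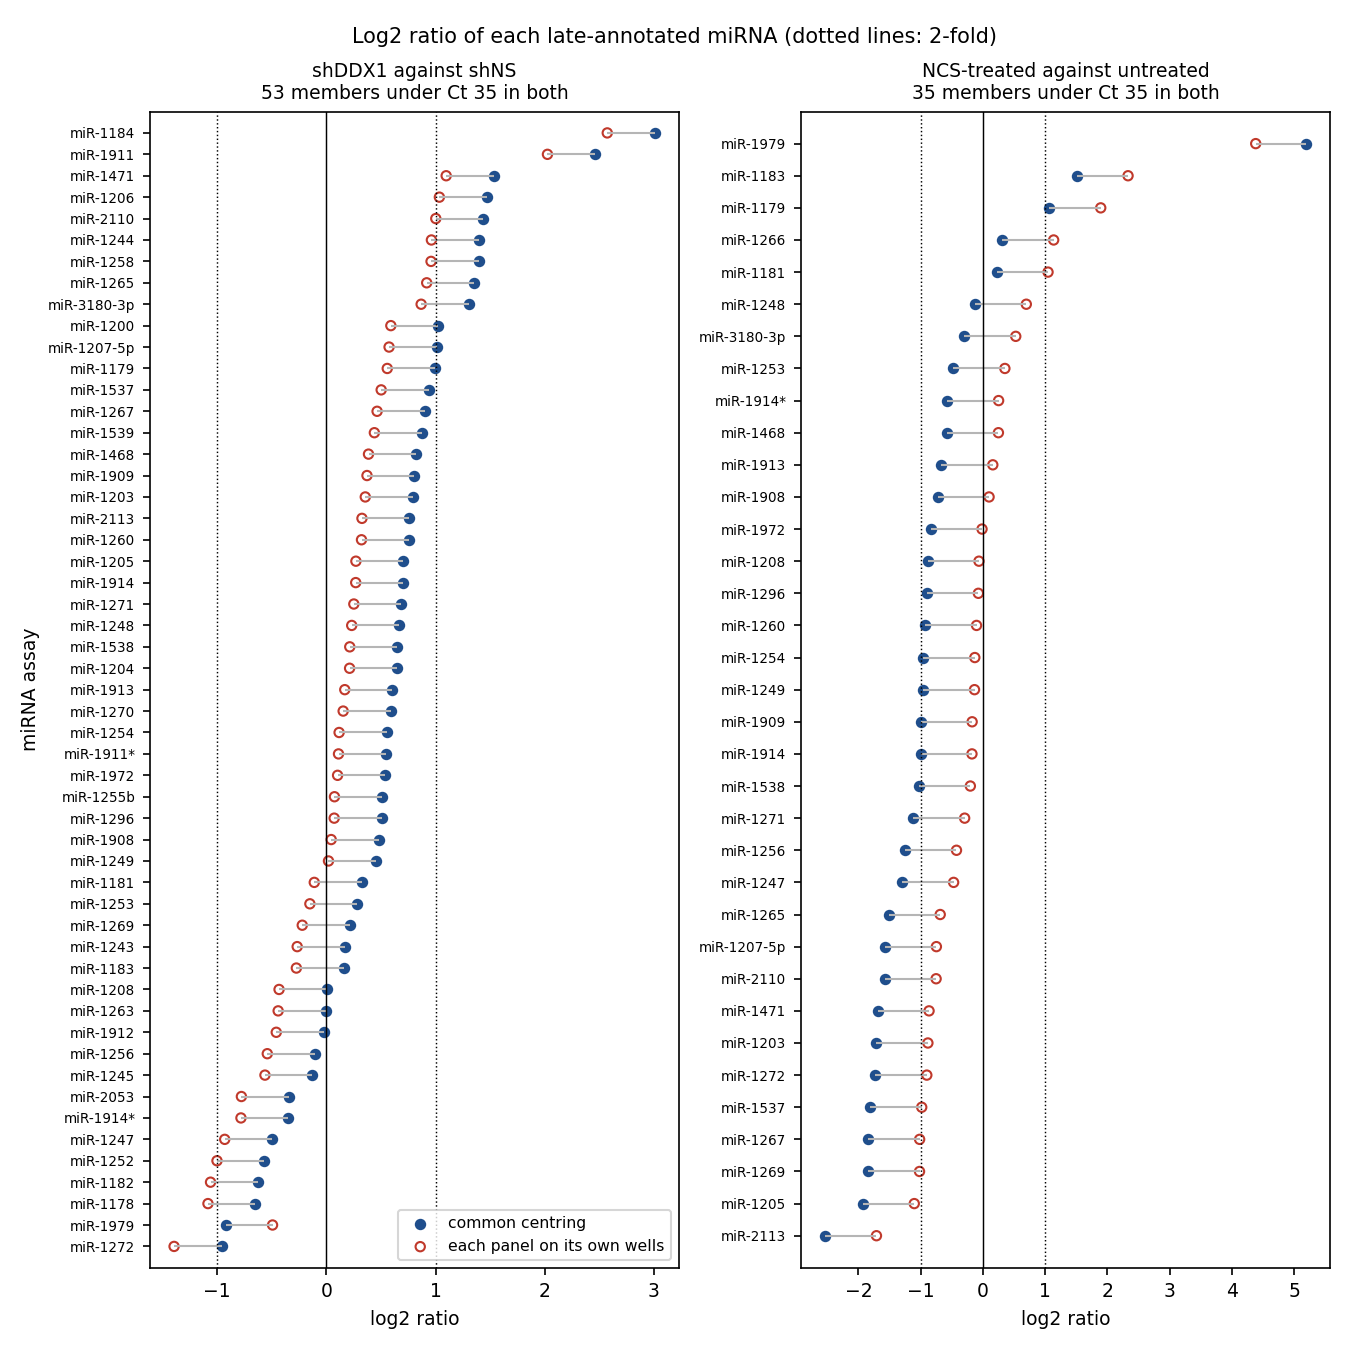
Log2 ratio of each quantified member, 53 for the knockdown (left) and 35 for NCS (right), ordered by its value under common centring (filled blue); open red circles give the ratio with each panel centred on its own wells, a grey line joins both, and dotted lines mark 2-fold. Per-panel centring moved the panel II members downward in the knockdown and upward with NCS, from medians over all members of 0.60 and -0.96 to 0.17 and -0.13.

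The member with the largest knockdown ratio was miR-1184, which in shNS read just inside the detection limit of 35 and in shDDX1 at a Ct of 32.3, a log2 ratio of 3.01 or 8.04-fold higher. It read 36.9 and 34.9 in the NCS pair. Next came miR-1911, at 33.4 in shNS and 31.2 in shDDX1, a log2 ratio of 2.46 or 5.50-fold higher. Both read late in shNS, and neither was under Ct 34 in the NCS pair. Under 8 scalings (common centring on the mean or the median, per-panel centring, no centring, centring on small nuclear and nucleolar RNAs, calibrator wells, the authors' deposited normalized table, and subtraction of neighbouring wells) these were the 2 members higher at 2-fold in each. Most of these scalings shift all panel II members of a comparison by the same amount, so they are not separate checks of a well. The count was made for members only, with no share over all assays beside it.

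The Ct of miR-1471 was 28.6 in shNS and 27.3 in shDDX1, a log2 ratio of 1.53. That of miR-1206 was 32.9 and 31.8, with a ratio of 1.47, and that of miR-2110 was 24.7 and 23.5, with a ratio of 1.44. The remaining members higher at 2-fold were miR-1244 at 1.40, miR-1258 at 1.39, miR-1265 at 1.35, miR-3180-3p at 1.30, miR-1200 at 1.03 and miR-1207-5p at 1.01. With per-panel centring the members that stayed past 2-fold were miR-1184, miR-1911, miR-1471, miR-1206 and miR-2110.

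At the other end, miR-1272 read 27.6 in shNS and 28.9 in shDDX1, a log2 ratio of -0.96. The ratio of miR-1979 was -0.92, that of miR-1178 -0.65, that of miR-1182 -0.63 and that of miR-1252 -0.57. None of these reached 2-fold under common centring on the mean, whereas miR-1272 was lower at 2-fold under the other 7 of the 8 scalings, with ratios from -1.63 to -0.96 over all 8. The 4 members that were lower at 2-fold with per-panel centring were miR-1272 at -1.39, miR-1178 at -1.08, miR-1182 at -1.06 and miR-1252, right at the threshold. In that setting miR-1979 stood at -0.49. Its ratio was 0.05 with neighbouring wells subtracted and ran down to -1.58 over the 8 scalings, past 2-fold lower in 4 of them.

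The reading of miR-1266 gives only a bound, since its Ct was 28.6 in shNS and 36.1 in shDDX1. Set against the detection limit of 35, its level after knockdown was lower by at least 67.4-fold, or 91.1-fold with per-panel centring. In the NCS pair the same assay read 30.7 and 29.6. The lower-numbered miR-513c, on the same panel, read 22.0 in shNS and 36.3 in shDDX1. How many other assays fell past the limit in this way was not counted. Each of these readings comes from 1 well.

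After NCS 16 of the 35 quantified members (45.7%) were lower at 2-fold and 3 (8.57%) were higher, with a median log2 ratio of -0.96. The background over all miRNA assays was 22.3% lower and 16.9% higher (median -0.38), and over lower-numbered panel II assays 39.4% lower and 2.46% higher (median -0.82). Panel I went the other way, where lower-numbered assays had a median of 0.30 and 30.1% were higher. Calibrator wells read 21.5 and 20.7 on panel I and 18.1 and 18.1 on panel II in untreated and treated cells. With per-panel centring 4 members were lower and 5 higher and their median was -0.13, against 20.5% lower and 13.7% higher over all assays. Lower-numbered panel II assays then had 6.90% lower, 8.37% higher and a median of 0.01. The assays on both panels gave an SD of 0.79 for an uncentred log2 ratio in this pair, of which a shift between the panels can again be part.

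The member with the largest difference was miR-1979, which had read 26.2 without NCS and 20.3 with it, a log2 ratio of 5.19 or 36.4-fold higher. With per-panel centring the ratio was 4.38. The wells within 2 rows and 2 columns of it on panel I had a median ratio of 1.35, and with that subtracted the ratio was 3.83. In the knockdown pair the same assay read 17.5 and 18.7, earlier than in either sample of the NCS pair. The panel I wells used for centring also read earlier there. Their mean Ct was 24.4 in shNS, 25.1 in shDDX1, 29.4 without NCS and 27.9 with it. Under common centring the log2 level of miR-1979 was 8.30 in shNS, 7.39 in shDDX1, 3.87 without NCS and 9.06 with it, so highest with NCS.

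On panel II, miR-1183 read 34.6 without NCS and 32.3 with it, a log2 ratio of 1.51 or 2.84-fold higher. A similar course was read for miR-1179, at 34.0 and 32.2, a ratio of 1.07 or 2.09-fold higher. The next ratios were 0.31 for miR-1266 and 0.22 for miR-1181, which with per-panel centring passed 2-fold at 1.14 and 1.05.

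Among the lower members, miR-2113 read 31.9 without NCS and 33.7 with it, a log2 ratio of -2.54 or 5.80-fold lower. The ratio of miR-1205 was -1.93, with readings of 31.9 and 33.1. It was -1.84 for miR-1267, which read 31.9 and 33.0, and -1.84 for miR-1269, which read 33.0 and 34.1. For miR-1537 it was -1.81, from a reading of 30.9 in untreated cells. Under all 8 scalings 3 of the 35 quantified members were higher at 2-fold, miR-1979, miR-1183 and miR-1179, and 3 were lower, miR-2113, miR-1205 and miR-1267. This count was made for members only, so no share over all assays stands beside it.

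The members detected in one sample of the NCS pair alone all read late, so no fold is given. In untreated cells alone these were miR-1206, at 33.8 without NCS and 38.2 with it, miR-1912, at 34.4 and 37.3, miR-1911*, at 34.9 and 35.5, and miR-1243, at 33.9 and then undetermined. In NCS-treated cells alone they were miR-1184, at 36.9 and 34.9, and miR-1244, at 36.4 and 34.4.

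**Figure D3:**
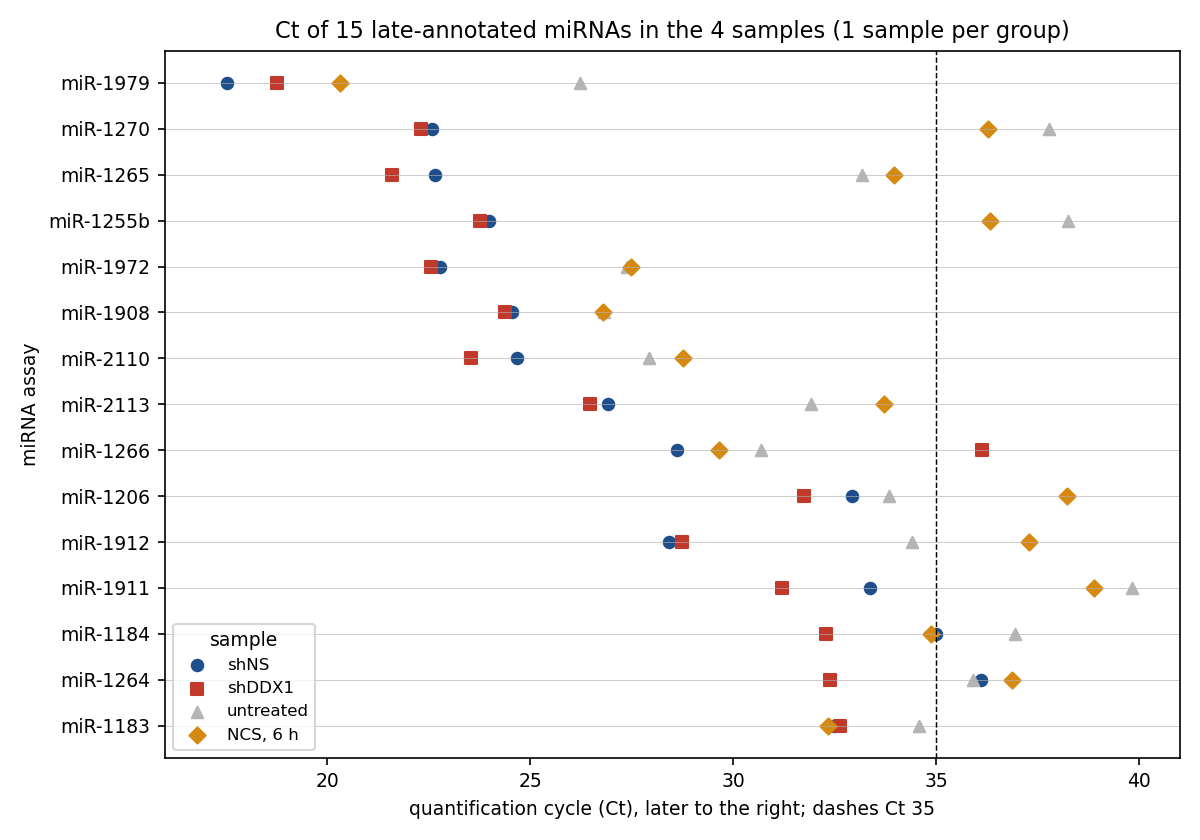
Quantification cycle (Ct, later to the right, dashes at Ct 35) of 15 named members, 1 per row, in shNS (blue circles), shDDX1 (red squares), untreated (grey triangles) and NCS-treated cells (orange diamonds). The reading of miR-1979 went from 26.2 to 20.3 with NCS, that of miR-1266 from 28.6 to 36.1 with the knockdown, and those of miR-1270, miR-1255b and miR-1265 stand far apart between the pairs.

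The pairs share no sample, so their calls can be set side by side. Of 34 members quantified in both, 4 had opposite calls, higher with the knockdown and lower with NCS: miR-1471, miR-2110, miR-1265 and miR-1207-5p. Among these 34 members they make up 80.0% of the 5 higher in shDDX1 and 25.0% of the 16 lower after NCS. The other members higher in shDDX1, of 11 in all, were not quantified in the NCS pair. No member was called in any other pair of directions; over all assays 6.65% were lower with the knockdown and higher with NCS, 1.61% lower in both and 0.202% higher in both. Among lower-numbered panel II assays the same opposite calls made up 42.1% of 38 and 20.3% of 79, and over all assays they were 21 of 496 (4.23%). With per-panel centring no member was called in both comparisons, against 3.83% of all assays for each opposite pair of directions and 0.605% for each like pair.

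For miR-1471 the Ct was 28.6 in shNS, 27.3 in shDDX1, 30.5 without NCS and 31.5 with it, with log2 ratios of 1.53 and -1.69. For miR-2110 it was 24.7, 23.5, 27.9 and 28.8, with ratios of 1.44 and -1.58. The ratios were 1.35 and -1.51 for miR-1265 and 1.01 and -1.57 for miR-1207-5p.

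Members were also grouped by where they are encoded. The HTR2C intron holds a group of hairpins, of which 4 assays were members: miR-1264, miR-1911, miR-1911* from the other arm of the miR-1911 hairpin, and miR-1912. In the knockdown pair 3 were quantified and 1, miR-1911, was higher at 2-fold, with a median log2 ratio of 0.55. The background is again 11.0% higher over all assays and 18.7% over lower-numbered panel II assays. The ratio was 0.55 for miR-1911* and -0.02 for miR-1912. None was quantified in the NCS pair, where miR-1911 read 39.8 and 38.9, miR-1911* 34.9 and 35.5 and miR-1264 35.9 and 36.9.

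The PVT1 locus, a long non-coding RNA gene, holds miR-1204, miR-1205, miR-1206, miR-1207-5p and miR-1208. All 5 were quantified in the knockdown pair, 2 (miR-1206 and miR-1207-5p) were higher at 2-fold and their median log2 ratio was 0.71, beside 11.0% higher over all assays and 18.7% over lower-numbered panel II assays, with medians of 0.04 and 0.41. The ratios of the other members were 0.65 for miR-1204, 0.71 for miR-1205 and 0.00 for miR-1208. After NCS 3 were quantified and 2 were lower, miR-1205 at -1.93 and miR-1207-5p at -1.57, while miR-1208 stood at -0.89 and miR-1204 read 37.3 and 38.6. Over all assays 22.3% were lower after NCS, and over lower-numbered panel II assays 39.4%. With per-panel centring miR-1206 in the knockdown pair and miR-1205 in the NCS pair remained past 2-fold, at 1.03 and -1.10.

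Other listed origins were thinly represented. From the imprinted 14q32 region only miR-1247 was a member, with log2 ratios of -0.50 for the knockdown and -1.30 for NCS, the latter inside 2-fold with per-panel centring, at -0.47. Of the assays assigned to small nucleolar RNA, miR-1248, whose locus lies within the translation factor gene EIF4A2, had ratios of 0.67 and -0.13. No member belonged to the lists for transfer RNA, U2 small nuclear RNA or ribosomal RNA. These lists were drawn up by name, and the sequences of the other members were not searched for such origins.

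The bracketed assays read earlier than most members. The assay for (miR-1974), a fragment of mitochondrial transfer RNA, read 15.3 in shNS, 15.3 in shDDX1, 17.6 without NCS and 17.7 with it. That for (miR-1201), assigned to small nucleolar RNA, read 24.3, 24.2, 27.5 and 26.7, and that for (miR-1259) read 25.7, 25.3, 27.9 and 27.9. Their log2 ratios were between 0.34 and 0.75 for the knockdown and between -0.81 and 0.07 for NCS, none past 2-fold. What the brackets stand for is not stated in the sources used here.

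The members that share a seed with miR-96 or miR-620 did not read like that assay. For miR-1271 the Ct was 26.9 in shNS, 26.5 in shDDX1, 29.9 without NCS and 30.3 with it, with log2 ratios of 0.69 and -1.12. For miR-96, on panel I, it was 23.0, 25.3, 33.9 and 27.3, with ratios of -1.94 and 5.87, the opposite direction in both comparisons. With per-panel centring the ratios were 0.25 and -0.29 for miR-1271 and -1.51 and 5.06 for miR-96. The Ct of miR-620 was 31.5 in shNS and undetermined in the other 3 samples, whereas miR-1270 read 22.6, 22.3, 37.8 and 36.3.

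That last member was one of a few whose readings were far apart between the pairs. Panel II members read a median of 4.19 cycles later in untreated cells than in shNS cells, over 50 members with both readings, against 3.73 for the 286 other miRNA wells of the panel. A gap of over 10 cycles, a limit chosen after the values were seen, was found on panel II for 3 members and 2 other assays. The gap was 15.2 cycles for miR-1270. It was 14.3 for miR-1255b, which read 24.0 in shNS, 23.8 in shDDX1, 38.3 without NCS and 36.3 with it. It was 10.5 for miR-1265, which read 22.6, 21.6, 33.2 and 34.0. In each of these members both samples of the knockdown pair read early and both samples of the NCS pair read late. The pairs differ in infection and selection and may differ in culture and plate run, and these cannot be told apart. Calibrator wells of panel II read a mean Ct of 16.7 in shNS and 18.1 in untreated cells. The share of the gaps that goes with this difference was not tested.

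**Figure D4:**
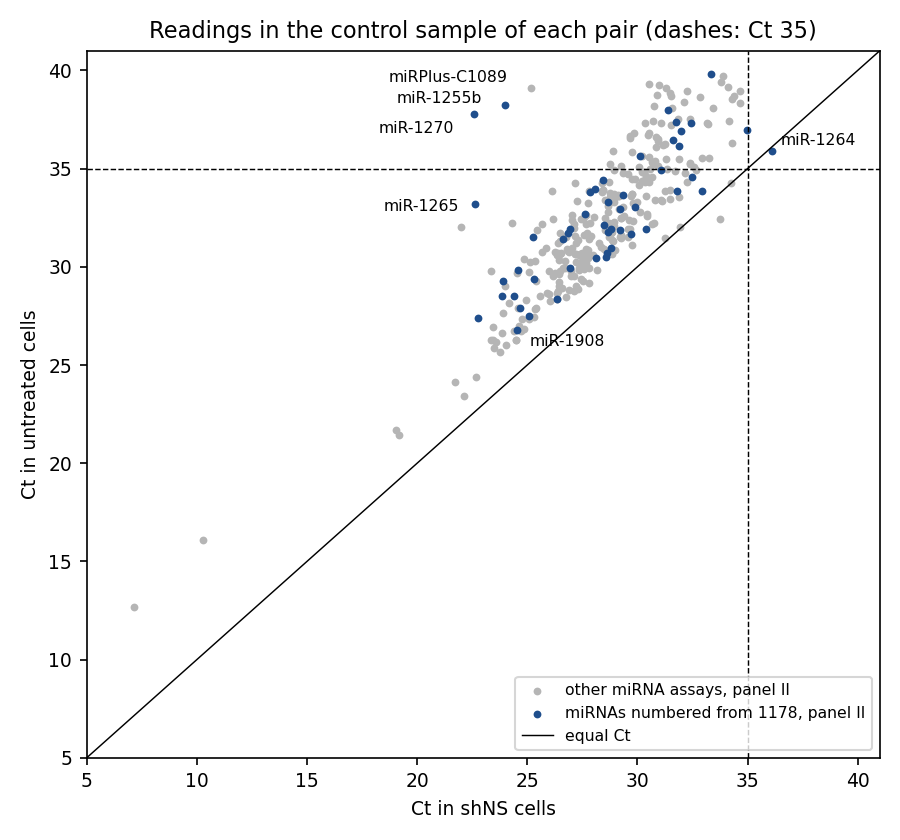
Quantification cycle (Ct) of each panel II miRNA in shNS cells (horizontal) and in untreated cells (vertical), members in blue and other miRNA assays in grey, with the line of equal Ct and dashes at Ct 35. Members lie among the other assays, at a median of 4.19 cycles above the line, with miR-1270, miR-1255b and miR-1265 10.5 to 15.2 cycles above it and miR-1264 just below it.

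The base composition of the members spanned a wide range. The share of G and C in the mature sequence ran from 22.7 to 85.7%, with a median of 56.8% over the 44 with a sequence. Across the members of a sample, which share plates and RNA, its Spearman correlation with Ct was -0.33 (44 members, shNS), -0.32 (44, shDDX1), -0.46 (41, untreated) and -0.42 (40, NCS), weak values given as a description. The members were split at 60%, chosen after the values were seen, into 20 at or above it and 24 below. The median Ct of the richer and the poorer group was 28.6 and 29.8 in shNS, 27.5 and 29.7 in shDDX1, 31.4 and 34.2 in untreated cells (over the 19 and 22 with a reading) and 31.4 and 33.8 with NCS (over 20 and 20). Detection was 20 of 20 and 23 of 24 in shNS, 19 and 24 in shDDX1, 17 and 13 without NCS, and 17 and 12 with it.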

How the data were processed

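The values are SYBR Green quantitative PCR readings of total RNA from 4 U2OS samples on an Exiqon human plate set of 2 panels with 384 wells each, per the labels and the series' design text. The authors deposited a table of quantification cycles with some wells undetermined, a table of shifted cycles and a table of linear fold over the control (a ratio); for the latter pair no method is stated in the sources used here, nor are the instrument, threshold and baseline. Here the cycles were used as read, with no replicate, so no p-value, SD between samples or interval is given. Levels were centred on the mean of the 499 miRNA wells (67.4% of 740) under Ct 35 in all 4 samples, with 1 cycle taken as 1 doubling. Repeated calibrator wells had a pooled SD of 0.191 cycles.

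The members, the lists and the rule for named miRNAs were chosen with earlier results of these data known. The rule named the 5 earliest members per sample, the 5 highest and 5 lowest ratios per comparison, members called in both comparisons, bounds, members not detected in the knockdown pair, all members of the lists by origin, and members sharing a seed with another assay. Among lower-numbered assays, shared seeds were looked for only with miR-96 and miR-620. Arms were assigned to older names from general knowledge of miRBase naming. The share of G and C was not compared with lower-numbered assays, most of whose names give no arm. Calculations used Python 3.11.15, pandas 2.3.3, NumPy 2.4.6 and Matplotlib 3.10.9. Common centring and the calls were tested on simulated data. The simulated plates had no shift between panels and no undetermined wells, so the handling of these was not tested.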

Additional observations from a re-analysis of the deposited data

Results flagged for a closer look

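Water wells, which are no part of the main counts and ratios, gave readings in the knockdown pair and none in the NCS pair. In shNS 6 of 9 water wells had a Ct and in shDDX1 7 had one. The earliest of those on panel II, in the same well of both samples, read 26.6 in shNS and 26.5 in shDDX1, ahead of most late-numbered miRNAs of that panel. Its part in the members' readings was not tested.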

How the results depend on the processing

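No paired analysis was possible because no group holds more than 1 sample, and for that reason no replicate was left out. In the knockdown comparison, where 0 members were lower, 11 were higher and the median log2 ratio was 0.60, the counts lower and higher and the median were 4, 5 and 0.17 with per-panel centring, 4, 4 and 0.14 with calibrator wells, 2, 6 and 0.21 with neighbouring wells subtracted, and 8, 2 and -0.06 with centring on small nuclear and nucleolar RNAs, where the median changed sign. The count lower was 2 with centring on the median, with no centring and in the authors' deposited normalized and fold tables (median 0.50 with the first of these and 0.30 with the others), 1 with a Ct limit of 37 or none, and 4 at 1.5-fold. The count higher was 3 of the 15 quantified members ahead of all water wells, whose median was 0.59. It was 28 at 1.5-fold and 2 at 4-fold. In the NCS comparison, where 16 were lower, 3 were higher and the median was -0.96, the counts and the median were 4, 5 and -0.13 with per-panel centring, 6, 5 and -0.07 with neighbouring wells subtracted, and 4, 5 and -0.16 in the authors' deposited fold table. They were 4, 5 and -0.18 in the authors' deposited normalized table and 5, 5 and -0.17 with small nuclear and nucleolar RNAs. With no centring 5 were lower and the median was -0.23, and with calibrator wells the median was -0.54. With neighbouring wells subtracted, 12.8% of all assays were lower and 7.96% higher in the knockdown, and 12.7% and 16.7% after NCS. Among lower-numbered panel II assays the shares were 11.0% and 7.77%, and 8.37% and 10.8%. Beyond common centring, per-panel centring and neighbouring wells, no share over all assays was counted. After NCS a Ct limit of 32 gave 6 lower and 1 higher of 20 quantified members. A limit of 37 gave 5 higher of 41 and no limit 6 higher of 48. At 4-fold 1 was lower and 1 higher, and at 1.5-fold 25 were lower. With a Ct limit of 32, 25 of the 39 members detected in untreated cells and 20 of the 37 in NCS-treated cells remained. The cause of these differences was not tested, apart from those that follow from the limit or fold itself. Counting the bracketed assays as members or leaving out miR-1979, both chosen after the data were seen, gave medians of 0.60 and 0.63 for the knockdown and -0.94 and -0.98 for NCS, and changed no count except that of higher members after NCS, which was 2 without miR-1979.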
